A study of Mus musculus with 9 samples.

Results

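Immediate early genes are switched on within minutes of a stimulus, before new protein is made, and their transcripts are as quickly lost. The 10 described here are Fos, Fosb, Jun, Junb, Jund, Egr1, Atf3, Ier2, Dusp1 and Zfp36, which are also widely used as signs of tissue dissociation. They were taken as a fixed list of symbols, chosen with earlier results of these data known. Each had exactly 1 probe set with a single gene symbol among the 19938 genes measured. RNA came from liver stromal cells of C57BL/6 mice with the genotype Cxcl12DsRed/+, in which the red fluorescent protein DsRed is read from 1 allele of the chemokine gene Cxcl12. All groups carried this reporter and were sorted as CD45-, Ter119- and DsRed+, so that cells with the blood markers CD45 and Ter119 were left out. The groups differed in stage: embryonic day E15.5, postnatal day P5 and postnatal day P10, with 3 Affymetrix arrays each. The 3 arrays of a stage are labelled independent replicates. Animals, litters or pools behind each array, and the time from dissection to lysis, are not given in the sources used here. The p-values therefore measure the spread between these arrays, which may not be that between animals or litters. The part of sample handling in the values was not tested.

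FOS and JUN family proteins pair through leucine zippers to form AP-1, a transcription factor that many growth, stress and cytokine signals reach through MAP kinases. Serum response factor (SRF) with its ternary complex partners, and CREB and ATF factors, drive Fos, Egr1 and Jun from sites close to the transcription start. Dusp1 encodes a phosphatase that switches MAP kinases off, and Zfp36 encodes tristetraprolin, which binds AU-rich elements and speeds the decay of short-lived mRNAs, so both act as brakes on the same response. In the liver, such genes are known to be induced when tissue is cut, warmed or digested, and during regeneration.

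Promoter sequences were searched for short motifs through which this class of genes is known to be controlled. RefSeq promoters on the build GRCm38.p6 were matched for 8 of the 10 genes, and the 250 bases before each start were searched. The motifs were the full CRE-like TGACNTCA, its core TGACG, the AP-1 motif TGACTCA, the CArG box bound by SRF (all on both strands) and TATAAA on the gene strand. The 4 windows below cover the 150 bases before the start on the gene strand, 5′ to 3′, with matches in capitals. They are shown because they carry different members of this motif set: Fos with a CRE core and a TATA box, Jun and Dusp1 with a CRE-like palindrome or near-palindrome, and Zfp36 with a CArG box.
Fos: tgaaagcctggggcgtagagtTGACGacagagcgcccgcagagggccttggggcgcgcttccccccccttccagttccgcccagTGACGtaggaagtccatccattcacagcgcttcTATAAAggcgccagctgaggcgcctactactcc
Jun: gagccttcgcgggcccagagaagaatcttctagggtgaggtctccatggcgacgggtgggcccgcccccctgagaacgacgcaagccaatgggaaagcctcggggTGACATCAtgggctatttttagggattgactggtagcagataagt
Dusp1: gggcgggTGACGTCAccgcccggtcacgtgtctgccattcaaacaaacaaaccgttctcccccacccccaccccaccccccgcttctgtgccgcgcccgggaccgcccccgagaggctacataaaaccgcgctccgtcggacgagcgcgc
Zfp36: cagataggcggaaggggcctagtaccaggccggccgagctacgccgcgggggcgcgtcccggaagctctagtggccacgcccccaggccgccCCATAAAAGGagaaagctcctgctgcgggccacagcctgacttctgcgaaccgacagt

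The Fos window lies at chr12:85473740-85473889 on the plus strand. On the minus strand lie Jun at chr4:95052223-95052372, Dusp1 at chr17:26508473-26508622 and Zfp36 at chr7:28379229-28379378. In Fos, TGACG stood at bases -66 to -62 and again at -129 to -125, and TATAAA at -33 to -28. The Jun match, TGACATCA, stood at -45 to -38, the Dusp1 match, TGACGTCA, at -143 to -136, and the Zfp36 CArG box, CCATAAAAGG, at -58 to -49. TGACG matched 5 of the 8 windows, counting the cores that lie within the Dusp1 palindrome, and 17.8% of all 32851 windows of this length. TGACNTCA matched 2 of 8 windows against 7.49% of all, the CArG box and TATAAA 1 each against 1.47% and 7.59%, and TGACTCA 0 of 8 against 4.46%. A match is a description of the letters and not of binding. Egr1 and Ier2 are named without a promoter.

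The values are log2 signals after robust multi-array averaging (RMA), so 1 unit is a doubling, and levels are compared within a gene and not between genes. All 10 genes were above percentile 30 of the array on all 9 arrays, and 8 were above the array median on all 9. Fos was above the median on 6 arrays and Atf3 on 8. Sorted samples give bulk RNA, so fewer cells with a transcript and less of it per cell cannot be told apart. Of the sort markers, Cxcl12 fell by 0.81 ± 0.17 (SE) from E15.5 to P5 (limma, adjusted p = 0.00555), and Ptprc, which encodes CD45, differed by 0.06 ± 0.068 (adjusted p = 0.548). Ptprc read 4.97 to 5.20 and was below percentile 30 on all 9 arrays. The mean of 13 hepatic stellate cell markers was 9.88 to 10.10 at E15.5, 8.26 to 8.56 at P5 and 8.004 to 8.14 at P10. The mean of 10 hepatocyte markers was higher after birth than at E15.5, but lower at P10 than at P5, at 10.04 to 10.09, 12.35 to 12.47 and 11.98 to 12.18. The median difference of that list from E15.5 was smaller, 0.37 at P5 and 0.17 at P10. Its genes were uneven: Cyp2e1, Fbp1 and Tat rose by 7.17, 7.10 and 5.98 at P5. The albumin gene Alb differed by 0.06 ± 0.060 at P5 and did not pass (adjusted p = 0.482), and Afp and Apob fell at P10 against E15.5. P5 arrays 2 and 3 stood apart in 10 sinusoidal endothelial markers, with means of 8.37 and 8.64 against 6.77 on P5 array 1 and 6.89 to 7.46 at the other stages. The means of these 3 lists were at or above the median of all values, 6.76, on all 9 arrays, and the part of such cells in the results below was not tested. The mean of 11 macrophage markers was 5.42 to 5.57 over all 9 arrays, although Cd68, a lysosomal protein gene, fell by 0.77 ± 0.14 at P5 (adjusted p = 0.00289) and the complement gene C1qa rose by 0.31 ± 0.093 (adjusted p = 0.0322).

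Most of the 10 genes were lower at P10 than at E15.5, and fewer of them passed the test at P5. At P5, 4 of 10 fell (Fosb, Jun, Ier2 and Zfp36) and 1 rose (Jund), at an adjusted p under 0.05 in limma over all genes. Of all genes, 17.7% fell and 17.9% rose in the same comparison. At P10 against E15.5, 7 of 10 fell, adding Fos, Egr1 and Atf3 to the first 4, and Jund was again the 1 that rose, where 18.6% of all genes fell and 20.1% rose. From P5 to P10, Fos, Junb and Egr1 fell (3 of 10, against 2.89% of all genes). In that last comparison 0 of 10 rose, against 2.76% of all genes. At an unadjusted p under 0.05 in limma, 0 of 10 were higher, against 10% of all genes, and 7 of 10 were lower, against 8.11%. A moderated F test over the 3 stages called 9 of 10, all but Dusp1, against 38.3% of all genes. The median difference of the 10 genes was -0.37 at P5 and -0.79 at P10 against E15.5, and -0.44 at P10 against P5, where the medians of all genes were 0.029, 0.024 and -0.0015. Each pair of these comparisons shares the arrays of 1 stage, so the counts are not independent of each other. The list was chosen with earlier results of these data known, which the shares of all genes do not take into account.

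Scaling changed the split of calls over all genes. The rising share among all called genes at P5 was 50.2%, and 64.1% after quantile normalisation and 61.5% after centring on ribosomal protein genes. At P10 against E15.5 it was 51.8%, and 69.4%, 62.4% and, after centring on array medians, 65.6%. At P10 against P5 it was 48.8%, and 63.5% after centring on array medians. These scalings moved the median of all genes to as much as 0.12 at P5 and 0.15 at P10 against E15.5. The 7 genes that fell at P10 and the rise of Jund kept their direction and their call under each of these scalings.

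**Figure D1:**
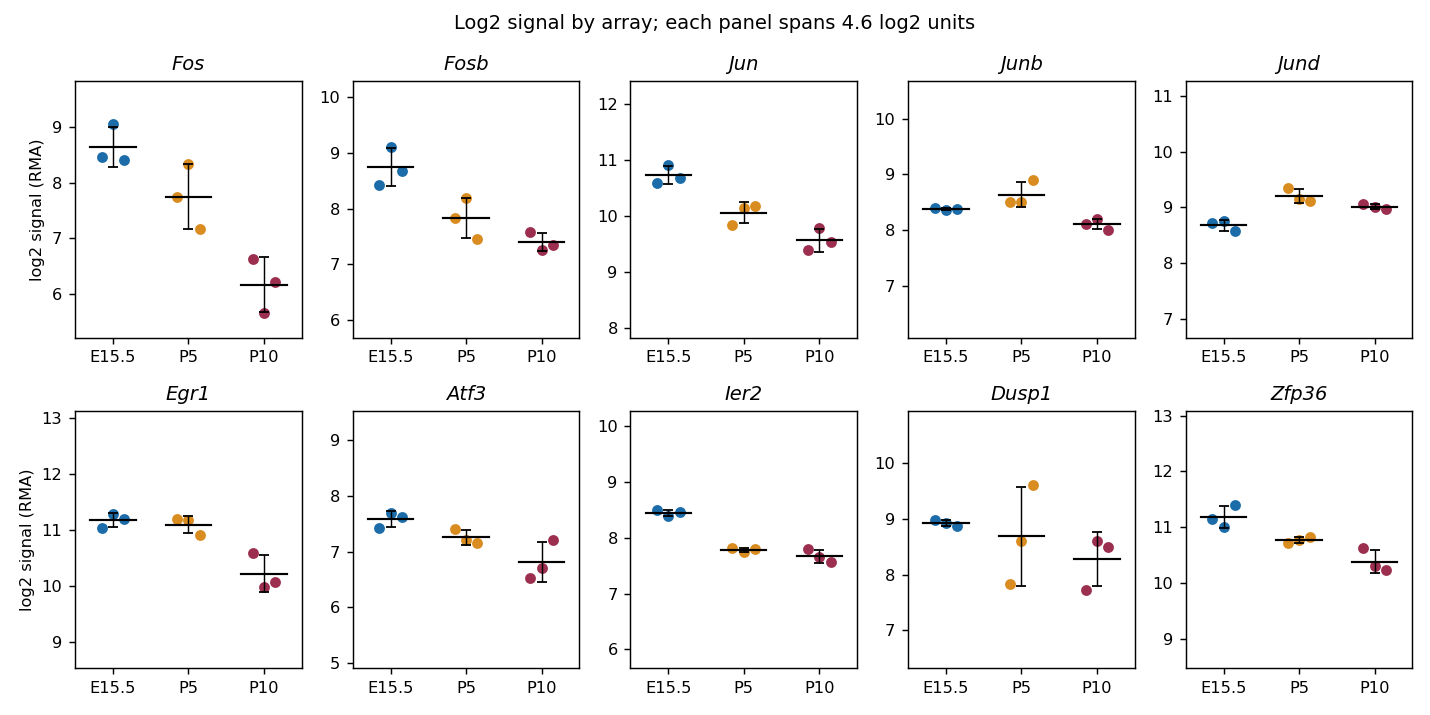
RMA log2 signal of each gene on the 9 arrays (y axis) by stage (x axis), with points for single arrays, horizontal bars for the mean and error bars for the SD of 3 arrays. Fos steps down from a mean of 8.64 to 6.17, Jund is higher after birth, and Dusp1 spreads from 7.84 to 9.61 at P5.

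Fos, the inducible AP-1 subunit that gives the family its name, showed the largest decrease of the 10. Its log2 signal was 8.47, 9.06 and 8.41 on the E15.5 arrays, 7.75, 8.33 and 7.16 at P5, and 6.64, 5.66 and 6.21 at P10. The 3 stages did not overlap, and each P10 array was below each P5 array. Fos fell by 2.47 ± 0.34 from E15.5 to P10, a 5.54-fold lower signal (limma, adjusted p = 0.000461). From P5 to P10 it fell by 1.57 ± 0.34, or 2.98-fold (adjusted p = 0.0353). The earlier step, -0.90 ± 0.34 from E15.5 to P5, did not pass the test (adjusted p = 0.0755), although its 95% interval, -1.68 to -0.11, leaves out 0.

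The P5 to P10 call of Fos was lost in 10 of 22 alternatives. These included leaving out E15.5 array 1 or 3, P5 array 1 or 2, or P10 array 2 or 3 (adjusted p 0.0527 to 0.117, difference -1.59 to -1.28), testing all probe sets (0.0624), fitting only those 2 stages (0.0871) and the replicate number as a block (0.0632). Over the 22 its adjusted p was 0.0126 to 0.117. Without P5 arrays 2 and 3, those high in endothelial markers, the difference was -1.58 with an adjusted p of 0.0986. Without P5 array 2 the step from E15.5 to P5 was -1.19 and passed (adjusted p = 0.0276), as the full step did with dim genes filtered at percentile 30 (0.0482) or at the median (0.0351).

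Fosb, a close relative that also pairs with JUN proteins, fell from E15.5 to P5. It stood at 8.43, 9.11 and 8.68 at E15.5, at 7.83, 8.19 and 7.46 at P5, and at 7.58, 7.26 and 7.35 at P10. Each E15.5 array was above all later ones, while P5 and P10 overlapped. The decrease was 0.91 ± 0.22 to P5 (adjusted p = 0.0103) and 1.35 ± 0.22 to P10, 2.54-fold (adjusted p = 0.00111). P10 minus P5, at -0.43 ± 0.22, did not pass (adjusted p = 0.357), and the intervals before and after P5 were not shown to differ (0.48 ± 0.37, adjusted p = 0.464). Within E15.5 and within P5, array 2 was the highest for both Fos and Fosb, and P5 array 3 was the lowest of its stage for both. Of the other FOS genes, Fosl1 was -0.05 ± 0.055 (adjusted p = 0.56) and Fosl2 -0.06 ± 0.13 (adjusted p = 0.751) at P10 against E15.5, neither past the test, and their difference from Fos and Fosb was not tested. Fosl1 was dim, at 5.53 to 5.69 on the 9 arrays, where percentile 30 of the array was 5.64 to 5.74.

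Of the 3 JUN genes, Jun, the main partner of FOS in AP-1, fell from E15.5 to P5 and from E15.5 to P10, with log2 signals of 10.60, 10.92 and 10.69 at E15.5, 9.84, 10.15 and 10.18 at P5, and 9.39, 9.79 and 9.53 at P10. Its stages did not overlap. The decrease was 0.68 ± 0.14 to P5 (adjusted p = 0.00481) and 1.17 ± 0.14 to P10, 2.24-fold (adjusted p = 0.000181), whereas P10 minus P5 was -0.49 ± 0.14 and did not pass (adjusted p = 0.0902; 0.0271 with the replicate number as a block).

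Junb, an AP-1 subunit that can restrain the activity of c-JUN, was highest at P5. It measured 8.40, 8.35 and 8.38 at E15.5, then 8.50, 8.51 and 8.90 at P5, then 8.11, 8.19 and 8.01 at P10. All P5 arrays were above all others, and all P10 arrays below all others. The 3 E15.5 values lay within an SD of 0.022, and P5 array 3 was the outlying high one. Junb fell by 0.53 ± 0.11 from P5 to P10 (adjusted p = 0.030), and the difference from E15.5 was 0.26 ± 0.11 at P5 (adjusted p = 0.107) and -0.27 ± 0.11 at P10 (adjusted p = 0.0863), neither past the test. The P5 to P10 call was lost in 10 of 22 alternatives: on leaving out E15.5 array 1 or 2 or any 1 of the P10 arrays (adjusted p 0.0524 to 0.0964), after centring on array medians (0.0564), with all probe sets (0.0527), only those 2 stages (0.093) or the replicate number as a block (0.0669), and without P5 arrays 2 and 3 together (-0.39, adjusted p = 0.0745). Without P5 array 3 alone, the decrease from E15.5 to P10 passed (adjusted p = 0.00919). It passed as well with array weights (0.0303) and when only those 2 stages were fitted (0.0154), and the rise from E15.5 to P5 passed after quantile normalisation (0.31, adjusted p = 0.0227).

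Jund, the JUN gene expressed most steadily in resting cells, was the 1 member that rose. Its signal was 8.72, 8.75 and 8.57 at E15.5, 9.34, 9.15 and 9.11 at P5, and 9.06, 9.01 and 8.97 at P10. Every postnatal array was above every E15.5 array, and every P5 array above every P10 array. It rose by 0.52 ± 0.080 to P5, 1.44-fold (adjusted p = 0.00104), and was 0.33 ± 0.080 above E15.5 at P10 (adjusted p = 0.0103), while P10 minus P5, -0.19 ± 0.080, did not pass (adjusted p = 0.255). Both calls held under all 22 alternatives, with adjusted p up to 0.00616 and 0.0383.

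Egr1, a zinc finger transcription factor driven by SRF sites, fell between P5 and P10. It read 11.04, 11.29 and 11.20 at E15.5, 11.19, 11.18 and 10.92 at P5, and 10.59, 9.99 and 10.07 at P10. The first 2 stages overlapped and all P10 arrays lay below them. P5 minus E15.5 was -0.083 ± 0.16, with a 95% interval of -0.45 to 0.29 (adjusted p = 0.741). Egr1 fell by 0.88 ± 0.16 from P5 to P10 (adjusted p = 0.0191) and by 0.96 ± 0.16 from E15.5 to P10, 1.94-fold (adjusted p = 0.00144). The later of these calls, P5 to P10, was lost on leaving out P5 array 1 or 2 or P10 array 2 or 3 (adjusted p 0.0597 to 0.068), with only those 2 stages fitted (0.0641), and without P5 arrays 2 and 3 together (-0.97, adjusted p = 0.0899).

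Egr2, the relative of Egr1 best known from nerve and lymphocyte differentiation, was already lower at P5. It stood at 8.17, 8.34 and 8.09, then 7.27, 6.94 and 6.66, then 6.37, 6.21 and 6.33 across the 3 stages, with no overlap. It fell by 1.24 ± 0.14 to P5 (adjusted p = 0.000217) and by a further 0.65 ± 0.14 to P10 (adjusted p = 0.0386). Their relative Egr3 rose by 0.27 ± 0.090 at P5 (limma, adjusted p = 0.0477), and its P10 value, 0.15 ± 0.090, did not pass (adjusted p = 0.232). Egr4 did not pass at P5 (0.06 ± 0.051, adjusted p = 0.40). Whether Egr1 and Egr2 differed from each other in their early step was not tested.

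Atf3, a stress-induced bZIP repressor, fell from E15.5 to P10. Its signal was 7.41, 7.70 and 7.62 at E15.5, 7.40, 7.20 and 7.16 at P5, and 6.53, 6.70 and 7.20 at P10, where array 3 was as high as P5 array 2. E15.5 was above P10 on every array. The decrease to P10 was 0.77 ± 0.17, 1.70-fold (adjusted p = 0.00627), and the steps to P5 (-0.33 ± 0.17, adjusted p = 0.178) and from P5 to P10 (-0.44 ± 0.17, adjusted p = 0.204) did not pass. Without P10 array 3 both passed, with adjusted p of 0.0476 and 0.0327, the second at -0.64.

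Ier2, a small nuclear protein gene induced together with Fos, fell before P5 and had the tightest replicates of the 10. Its values were 8.49, 8.39 and 8.47 at E15.5, 7.81, 7.75 and 7.80 at P5, and 7.79, 7.66 and 7.56 at P10. Each E15.5 array was above all postnatal ones, and the postnatal stages overlapped. It fell by 0.67 ± 0.070 to P5 (adjusted p = 0.000114) and by 0.78 ± 0.070 to P10, 1.72-fold (adjusted p = 3.3e-05). P10 minus P5 was -0.11 ± 0.070, with a 95% interval of -0.27 to 0.047 (adjusted p = 0.482).

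Zfp36, the mRNA decay factor, fell from E15.5 to P10. It was 11.14, 10.998 and 11.40 at E15.5, 10.71, 10.77 and 10.83 at P5, and 10.62, 10.30 and 10.23 at P10, with no overlap between stages. It fell by 0.80 ± 0.13 to P10, 1.74-fold (adjusted p = 0.0011), and by 0.41 ± 0.13 to P5 (adjusted p = 0.0356), and the later step, -0.39 ± 0.13, did not pass (adjusted p = 0.14). The P5 call was lost in 11 of 22 alternatives: on leaving out E15.5 array 1 or 3, any 1 P5 array or P10 array 2 (adjusted p 0.0505 to 0.111), after centring on array medians (0.0539) or ribosomal protein genes (0.114), with array weights (0.0506), with the replicate number as a block (0.0567) and without P5 arrays 2 and 3 (0.14). Its relative Zfp36l1 rose, from 10.22 to 10.33 at E15.5 to 11.11 to 11.38 at P5, by 1.00 ± 0.082 (adjusted p = 2.7e-05), and was 0.94 ± 0.082 above E15.5 at P10 (adjusted p = 2.8e-05). Zfp36l2 did not pass in any comparison, with 0.22 ± 0.16 at P5 and -0.22 ± 0.16 at P10 against E15.5 (adjusted p = 0.348 and 0.331).

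Dusp1, the MAP kinase phosphatase, did not pass in any comparison. It was even at E15.5, with 8.98, 8.93 and 8.87, and uneven later, with 7.84, 8.61 and 9.61 at P5 and 7.72, 8.61 and 8.49 at P10. P5 overlapped both other stages, reaching above all E15.5 arrays, and every P10 array was below every E15.5 array. The difference was -0.24 ± 0.41 at P5 (95% interval -1.18 to 0.70, adjusted p = 0.703) and -0.65 ± 0.41 at P10 (-1.59 to 0.29, adjusted p = 0.265). Its SD within stages, 0.58, was larger than that of 99.3% of all genes, followed among the 10 by Fos with 0.48 (98.6%) and, at the other end, Ier2 with 0.076 (21.7%). The order of Dusp1 at P5, array 1 lowest and array 3 highest, was that of the endothelial marker means (6.77, 8.37 and 8.64). Jun, Junb and Zfp36 had this order at P5 as well, over spans of 0.34, 0.40 and 0.12 log2 units against 1.77 for Dusp1. At E15.5 and P10 the endothelial means spanned 6.89 to 7.05 and 6.95 to 7.46, and Dusp1 on P10 array 1, where that mean was lowest for the stage, was 7.72, although its highest P10 value lay on array 2 and that of the endothelial mean on array 3. The part of endothelial RNA was not tested. Without P5 array 1 the difference of P5 from E15.5 was 0.18, and without P5 array 3 it was -0.70.

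**Figure D2:**
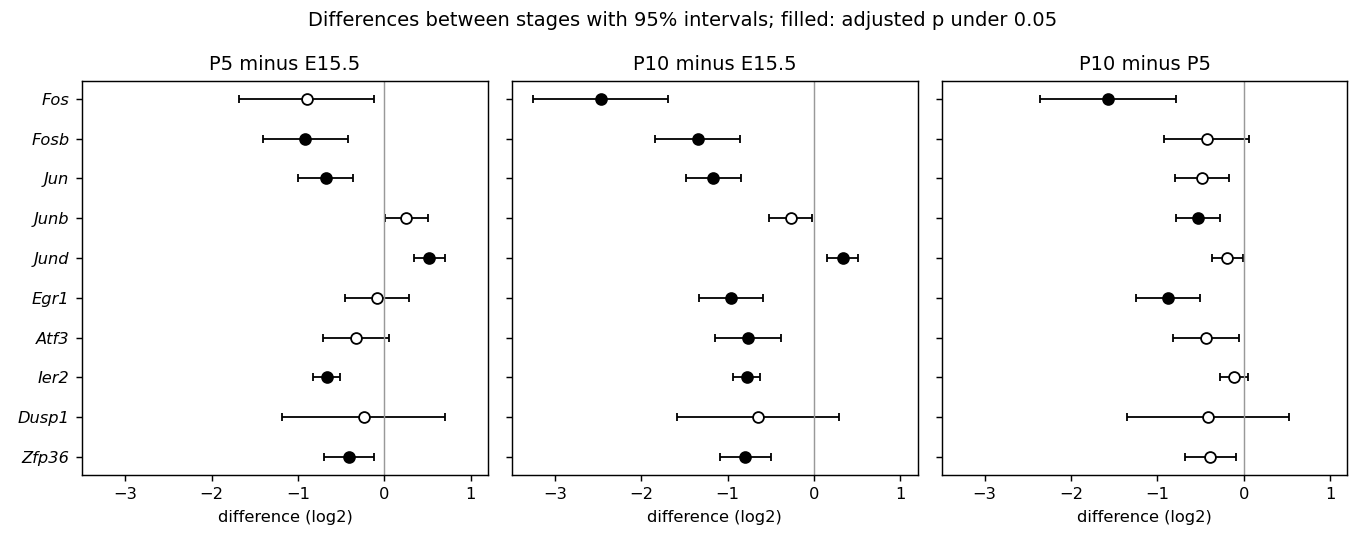
Difference between stages on the log2 scale (x axis) for each gene (y axis), with the 95% interval from limma, filled where the adjusted p was under 0.05. Fos is the lowest point in the comparison of P10 with E15.5, at -2.47, and Jund is the 1 filled point above 0 in the first 2 panels.

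The timing of the changes was compared by testing P10 minus P5 against P5 minus E15.5, where a negative value means that a gene went down more, or up less, in the second interval. Junb and Jund were negative past the test and Ier2 positive, so 2 and 1 of 10, against 8.70% and 7.93% of all genes. The value was -0.79 ± 0.19 for Junb (adjusted p = 0.0239), whose decrease after P5 passed and whose P5 minus E15.5 value of 0.26 did not, and -0.71 ± 0.14 for Jund (adjusted p = 0.00923), which rose first. For Ier2, whose decrease lay before P5, it was 0.56 ± 0.12 (adjusted p = 0.0154). Egr1 had the lowest value, -0.79 ± 0.28, and did not pass (adjusted p = 0.0939), though it did without P10 array 1 (-0.98, adjusted p = 0.0115). For Fos the value was -0.68 ± 0.59 (95% interval -2.03 to 0.68, adjusted p = 0.523). Its intervals were therefore not shown to differ. The call of Ier2 was lost without P5 array 2 (adjusted p = 0.0624), after centring on ribosomal protein genes (0.0683) and with an intensity trend (0.0641). That of Junb was lost without P10 array 3 (0.0541) and with the replicate number as a block (0.0504), and without P5 arrays 2 and 3 only that of Jund was kept.

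**Figure D3:**
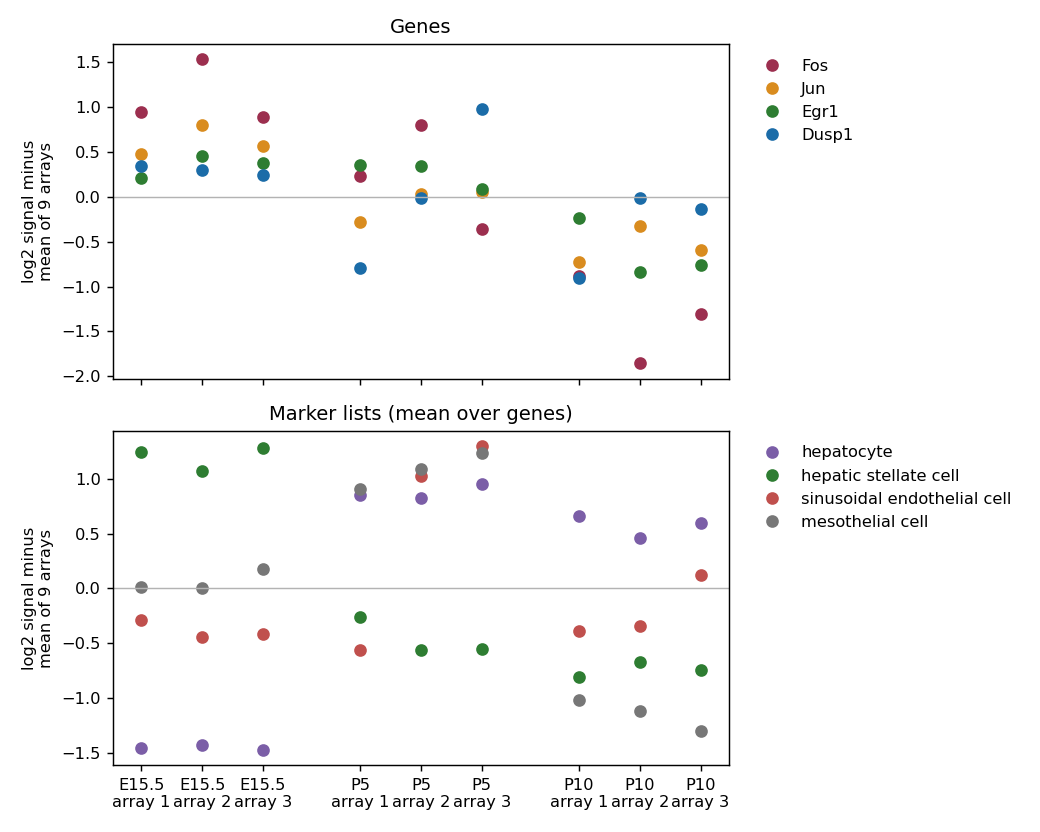
Log2 signal minus the mean of 9 arrays (y axis) on each array (x axis), for Fos, Jun, Egr1 and Dusp1 (top) and for the means of 4 marker lists (bottom). Endothelial markers are high on P5 arrays 2 and 3, Dusp1 is highest on P5 array 3, and stellate markers are highest on the E15.5 arrays.

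Summed over the 10 genes, the E15.5 arrays had means of 9.17, 9.35 and 9.23, the P5 arrays 8.82, 8.98 and 8.91, and the P10 arrays 8.40, 8.32 and 8.36. Within a stage, no array was high in all of the genes. E15.5 array 2 was the highest of its stage in 6 of 10 genes, Fos, Fosb, Jun and Egr1 among them. On that array the mean of 9 granulocyte markers was 6.17 against 5.37 and 5.40, and that of 4 megakaryocyte markers 7.97 against 7.20 and 7.11, and their part was not tested. P5 array 3 was lowest in 5 genes and highest in 4, and P10 array 1 was highest in 6. All 13 stellate markers fell at P5 and all 13 at P10 against E15.5, among them Lrat, which encodes the enzyme that stores retinoids, with differences of -2.44 ± 0.21 and -2.95 ± 0.21 (adjusted p = 4.3e-05 and 9.6e-06). Of 10 hepatocyte markers, 7 rose and 1 fell at P5, and 5 rose and 2 fell at P10. As a background to the marker counts, 17.9% of all genes rose and 17.7% fell at P5. At P10 against E15.5, 20.1% of all genes rose and 18.6% fell, and from P5 to P10, 2.89% fell. Of 7 erythroid markers, 4 fell and 0 rose at P5 (1 higher at an unadjusted p under 0.05 in limma), and 5 fell and 1 rose at P10, with list means of 7.17 to 8.06 at E15.5 and 6.82 to 7.05 after birth. Of 4 megakaryocyte markers, 3 fell at P5 and 3 at P10 against E15.5, among them the platelet factor gene Pf4 (-2.72 ± 0.40 at P5, adjusted p = 0.000811). Their list means were 7.11 to 7.97 at E15.5 and 5.82 to 6.06 after birth. Of 6 mesothelial markers, 4 rose and 1 fell at P5 and 4 fell at P10 against E15.5, and all 6 fell from P5 to P10, when Fos, Junb and Egr1 also fell. The part of these cells was not tested.

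The rest of the response did not move as 1 block. The counts of this list and the next ones stand beside all genes, of which 17.9% rose and 17.7% fell at P5. At P10 against E15.5 these shares were 20.1% and 18.6%, and from P5 to P10 they were 2.76% and 2.89%. Differences of the list counts from these shares were not tested. Among 27 other immediate early transcription factor genes, 6 rose and 8 fell at P5, and 5 rose and 8 fell at P10 against E15.5, with medians of 0.062 and -0.24. Klf6, a zinc finger gene induced by injury, fell by 1.81 ± 0.17 at P5 (adjusted p = 7.3e-05), with 9.51 to 9.89 at E15.5 and 7.65 to 7.97 at P5. The orphan nuclear receptor gene Nr4a1 fell by 1.07 ± 0.13 at P5 (adjusted p = 0.000326) and was 0.80 ± 0.13 below E15.5 at P10 (adjusted p = 0.00138). Myc, the growth regulator, fell by 1.10 ± 0.19 at P5 (adjusted p = 0.002), while its P10 value, -0.51 ± 0.19, did not pass (adjusted p = 0.0633). Against these, Nfil3 and Bhlhe40, both tied to the circadian clock, rose by 1.53 ± 0.13 and 2.17 ± 0.25 at P5 (adjusted p = 3.1e-05 and 0.000201). From P5 to P10, 0 of 27 rose (4 at an unadjusted p under 0.05) and 2 fell: Egr2, and Id3, an inhibitor of basic helix-loop-helix factors (-1.67 ± 0.20, adjusted p = 0.00318).

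Among 18 other AP-1 and related bZIP genes, 6 rose and 3 fell at P5, and 5 rose and 4 fell at P10, with medians of 0.010 and -0.056. Atf5 rose by 2.12 ± 0.12 (adjusted p = 4.1e-06) and Mafk by 0.40 ± 0.059 (adjusted p = 0.00084) at P5, and Crem, a CRE-binding regulator, by 1.32 ± 0.14 at P10 (adjusted p = 9e-05). Batf3, which restrains AP-1, fell by 0.75 ± 0.11 at P5 (adjusted p = 0.000688), and Creb1, which binds CREs, by 0.86 ± 0.16 (adjusted p = 0.00316). From P5 to P10, limma called 0 of 18, where 2 were higher and 4 lower at an unadjusted p under 0.05.

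Of 28 other early effector genes, such as secreted and signalling proteins, 6 rose and 6 fell at P5, and 7 and 7 at P10, with medians of 0.035 and 0.014. Ccn1, a matrix protein gene controlled by SRF and YAP, fell at both steps: 11.28, 10.82 and 11.43 at E15.5, 8.56, 8.67 and 8.32 at P5, and 6.99, 6.91 and 7.85 at P10. It fell by 2.66 ± 0.26 (adjusted p = 7.8e-05) and then by 1.27 ± 0.26 (adjusted p = 0.0296). Socs3, the inhibitor of cytokine signals, fell by 0.47 ± 0.070 at P5 (adjusted p = 0.000931), and the kinase gene Plk3 rose by 1.01 ± 0.13 (adjusted p = 0.000427). The NF-kappa-B inhibitor gene Nfkbia rose by 0.66 ± 0.13 from P5 to P10 (adjusted p = 0.0252), where Ccn1 was the 1 of 28 that fell.

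The feedback and upstream genes were split as well. Of 21 phosphatase, ZFP36 family and ERK feedback genes, 5 rose and 6 fell at P5, and 5 rose and 8 fell at P10, with medians of 0.0038 and -0.0042. Errfi1, an inhibitor of the EGF receptor, rose by 2.13 ± 0.085 at P5 (adjusted p = 4.7e-07) and by a further 0.39 ± 0.085 to P10 (adjusted p = 0.0346), the 1 call of that list from P5 to P10. The phosphatase gene Dusp16 and the antiproliferative gene Tob1 rose by 1.25 ± 0.074 and 1.31 ± 0.097 at P5 (adjusted p = 4e-06 and 1.5e-05). Among the 6 that fell at P5 were the phosphatase genes Dusp10 and Dusp4, by 1.59 ± 0.23 and 0.82 ± 0.10 (limma, adjusted p = 0.00075 and 0.000324). Of 26 upstream MAP kinase and SRF genes, 6 rose and 10 fell at P5, and 7 rose and 9 fell at P10, with medians of -0.17 and -0.14. Map2k2, the ERK kinase gene, rose by 1.18 ± 0.076 at P5 (adjusted p = 6.8e-06), and Mapk7, which encodes ERK5, fell by 0.80 ± 0.11 (adjusted p = 0.000462). Mapk8, which encodes JNK1, was the 1 call from P5 to P10, with a rise of 0.54 ± 0.11 (adjusted p = 0.0263). Srf itself was 0.34 ± 0.091 lower at P10 than at E15.5 (adjusted p = 0.0186), and its value at P5, -0.27 ± 0.091, did not pass (adjusted p = 0.0525).

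Heat shock and chaperone genes are a further part of dissociation signatures. Of 19 measured, 5 rose and 7 fell at P5, and 6 rose and 7 fell at P10 against E15.5, with medians of -0.079 and -0.0057. Hspa1a, the inducible HSP70 gene, read 8.005, 8.9996 and 8.46 at E15.5, 7.50, 7.52 and 7.21 at P5, and 7.73, 7.19 and 7.25 at P10. Each E15.5 array was above every later one. It fell by 1.08 ± 0.25 at P5 (adjusted p = 0.00901) and was 1.10 ± 0.25 below E15.5 at P10 (adjusted p = 0.00731). Cryab, a small heat shock protein gene, fell by 1.33 ± 0.089 at P5 (adjusted p = 8.5e-06), and its 3 P5 arrays held the identical value 8.79, which understates its spread. Hspb8 rose by 3.33 ± 0.25 (adjusted p = 1.5e-05) and the mitochondrial chaperone gene Hspa9 by 1.11 ± 0.065 (adjusted p = 4.1e-06). From P5 to P10, 4 of 19 fell, among them Hsp90b1, the chaperone of the endoplasmic reticulum, by 0.74 ± 0.10 (adjusted p = 0.00608), and Hspb1 by 0.88 ± 0.16 (adjusted p = 0.0183). In that comparison 0 of 19 rose, with 3 higher at an unadjusted p under 0.05.

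**Figure D4:**
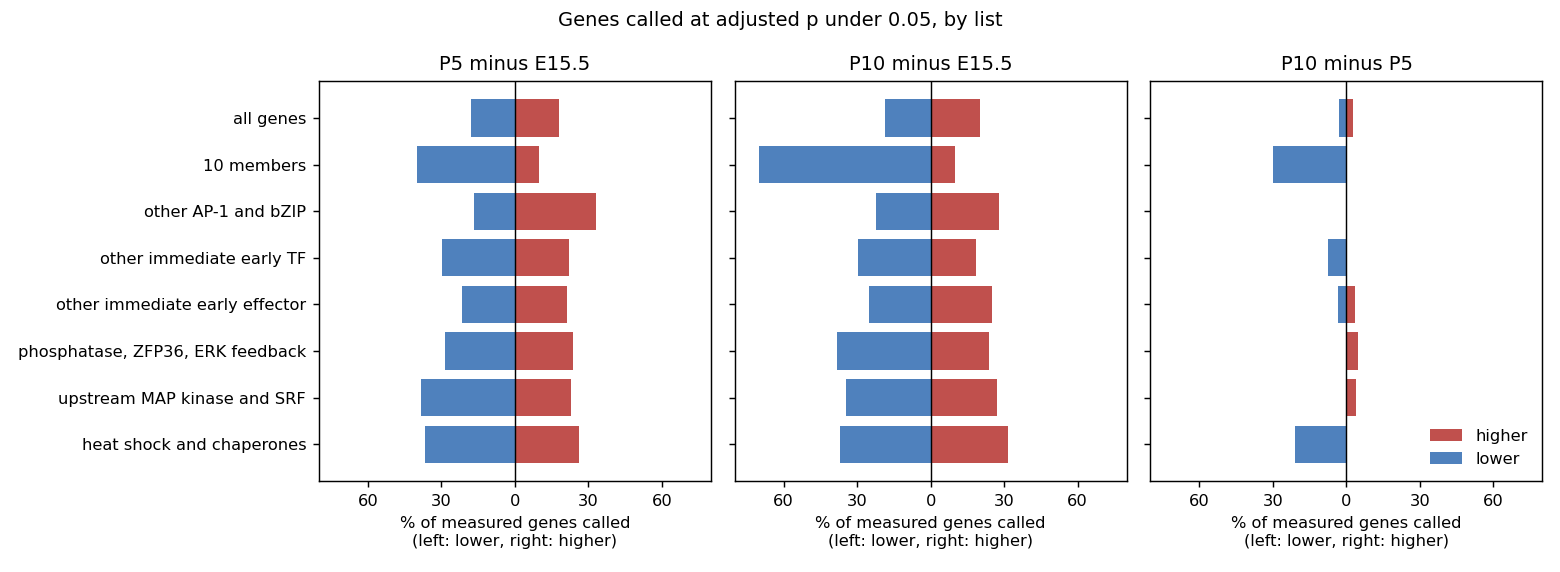
Percent of the measured genes of each list called at an adjusted p under 0.05 (x axis, lower to the left and higher to the right) in 3 comparisons, with all genes in the top row. Of the 10 genes, 7 are lower and 1 is higher at P10 against E15.5, and the other 6 lists also have calls on both sides in the first 2 panels.

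Genes with the profile most like a member were found for the 3 members whose highest and lowest stage means were at least 1 log2 unit apart. Likeness was the root mean square difference over the 9 arrays after centring each gene on its own mean. Genes with predicted or uncharacterised symbols were left out of this ranking. For Fos the nearest were Timp1, an inhibitor of matrix proteases (0.28 log2 units), the nuclear long noncoding RNA Malat1 (0.36) and Ddah2 (0.36). Timp1 had stage means of 8.35, 7.66 and 6.29, and Malat1 of 11.78, 10.98 and 9.48, beside 8.64, 7.75 and 6.17 for Fos. For Fosb they were Slc38a9, Tmem43 and Tmem26 (0.18 to 0.19), and for Jun they were Ttyh3, Syvn1 and Ankrd12 (0.11 to 0.12). The distances are smaller for Jun, whose own range was smaller.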

How the data were processed

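RNA of 9 arrays was compared, 3 each at E15.5, P5 and P10. The deposited values are log2 signals that the authors made by RMA, with Affymetrix Expression Console and Transcriptome Analysis Console 2.0 also named, per the submitters' processing notes. RMA normalises between arrays, which can hide a shift shared by most genes. For the probe annotation, the build was not given in the sources used here. Of 35556 probe sets, 21789 had 1 symbol, and for each of 19938 genes the brightest of its probe sets, by mean, was used. No filter was applied before the main tests.

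Stage was the only term in limma 3.58.1 (R 4.3.3) over all 9 arrays. Tests were 2-sided, with Benjamini-Hochberg adjustment across the 19938 genes, and called at 0.05. The script was tested on simulated data. Errors are SE for differences.

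The members and lists were chosen with earlier results of these data known. All members are named. From each other list up to 3 called genes with the smallest adjusted p, up to 2 against its main direction, and fixed relatives could be named. Dusp4, Dusp10, Egr3 and Egr4 were named outside this rule, as were the genes under other observations. No array dates were used, and a batch running with stage cannot be told apart from it. The number of arrays limits the precision. Alternatives were other scalings, filters, probe set choices, variance models, sample sets and a replicate block, and 1, without P5 arrays 2 and 3, was chosen after seeing the data.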

Additional observations from a re-analysis of the deposited data

How the results depend on the processing

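Of 870 member differences under alternatives, 814 stayed on their side of the threshold, 44 lost a call, 12 gained one and 0 reversed a call. Of the 814, 796 kept their sign and 18 uncalled values changed it, all of them for Dusp1, Egr1, Jun, Atf3 or Zfp36. Without P5 arrays 2 and 3, for example, Dusp1 was 0.43 at P10 against P5. P10 against P5 was the least stable comparison: of 3 genes called, 1 was called when all probe sets were tested, and 0 when only those 2 stages were fitted (6 at an unadjusted p under 0.05 in limma) or without P5 arrays 2 and 3 (4 at an unadjusted p under 0.05). Leaving out 1 array gave 0 to 3, with 0 without P10 array 2 (4 at an unadjusted p under 0.05). The 3 genes whose intervals differed became 1 without P5 arrays 2 and 3. The members called ranged from 4 to 6 at P5 and from 8 to 9 at P10 against E15.5 on leaving out 1 array. In the same fits, the calls over all genes ranged from 6194 to 7174 at P5 and from 6754 to 7895 at P10 against E15.5. Over all genes, the calls were 7089 at P5 and 7716 at P10 against E15.5, and 10846 and 12072 when all probe sets, a larger family, were tested. P10 against P5 gave 1126 calls, 709 with only those 2 stages (fewer arrays), and 586 (without P10 array 2) to 1385 (without P5 array 3) on leaving out 1 array.

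Arrays with the same replicate number were not alike over all genes (r of residuals across genes -0.079 to 0.069, 0 of 9 pairs over 0.1). The labels do not say whether the numbers mark a shared litter or day. So few arrays per stage cannot show whether some genes shared one. With the replicate number as a block, 4, 8 and 2 members were called at P5 and P10 against E15.5 and at P10 against P5, and 2 in the test between intervals. Over all genes, the same fit called 6886 at P5 and 7440 at P10 against E15.5, and 893 at P10 against P5. Without the block these were 7089, 7716 and 1126. The cause of these changes was not tested.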

Other observations

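Some relatives of the described genes were also uneven at P5, and they are given here as values picked after they were seen. Gadd45g, a stress-induced growth arrest gene, had log2 signals of 7.45, 7.42 and 9.19 on P5 arrays 1 to 3, where Dusp1 had 7.84, 8.61 and 9.61. Sgk1, a kinase gene induced by glucocorticoids, had 7.47, 7.82 and 8.72, and Ier3, an immediate early survival gene, 7.24, 7.72 and 8.10. All 4 were highest on P5 array 3, the array on which Fos, at 7.16, and Fosb, at 7.46, were lowest for their stage. At E15.5 the same genes were narrower, with 6.78 to 7.30 for Gadd45g, 7.29 to 7.76 for Sgk1 and 7.30 to 7.36 for Ier3. Other listed genes were uneven at P5 with array 2 highest, such as Batf2 (6.95, 9.47 and 6.97) and Irf1 (8.30, 9.65 and 7.69).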
